A study of Mus musculus with 4 samples.

Results

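Imprinted genes are described here in limb chromatin of mouse embryos at stage E11.5. The set holds 10 genes, H19, Igf2, Cdkn1c, Kcnq1ot1, Peg3, Meg3, Mest, Plagl1, Grb10 and Snrpn, chosen by name and not by any value measured here, out of 26212 annotated genes compared. Accessibility was read by ATAC-seq, in which the Tn5 transposase cuts and tags open chromatin. For each gene the accessible positions within 1 kb of an annotated transcription start (the promoter) and within 50 kb of the gene body (the neighbourhood) were taken from 4 deposited lists of peak summits. The 4 libraries came from embryos with the strain label c57bl6.J X 129S6.sv: 2 from mutants with an inserted stop cassette and 2 from wild-type embryos, with forelimb and hindlimb combined in each. Limb cells were dissociated and fixed with PFA before transposition in every library. The labels give neither the position of the cassette nor whether one or both chromosomes carry it.

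In each list the score of a summit, taken as −log10 of a q-value, was ranked within its own list and is given as a percentile, where 0 is the weakest and 100 the strongest summit. Values follow the order stop cassette replicate 1, stop cassette replicate 2, wild-type replicate 1, wild-type replicate 2. The lists hold 79083, 107827, 51701 and 68471 summits, so wild-type replicate 1 is the shortest list and both stop cassette lists are longer than both wild-type lists. Because list length differed by genotype, values are also given with every list reduced to its 51701 strongest summits (equal length). The peak names of both wild-type lists carry the same replicate number with different sub-numbers, and whether those libraries came from separate embryos is not given in the sources used here. The p-values then measure the spread between these samples, which may be technical. The libraries are bulk tissue: fewer cells with an open site and less opening per cell cannot be told apart, nor can the maternal and paternal chromosomes. Of 10 limb mesenchyme markers, promoters of 9, 9, 7 and 9 held a summit (Tbx5 in no list), against 0 of 4 liver markers in every list. So did 3, 4, 4 and 4 of 4 neural markers, 2 of 4 annotated blood markers in every list, and 1, 3, 2 and 1 of 5 surface ectoderm markers. Endothelial and muscle precursor markers are given with Grb10. Of all genes, 57.9%, 61.0%, 55.2% and 57.7% held one, so a promoter summit alone does not name a tissue.

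Imprinted genes are expressed mainly from the chromosome inherited from one parent. Their clusters are governed by control regions that carry DNA methylation on one parental chromosome only (differentially methylated regions, DMRs), set in the germ line and kept afterwards with the help of the zinc finger protein ZFP57, which binds the methylated hexamer TGCCGC. At the H19 and Igf2 cluster, the insulator protein CTCF binds the unmethylated maternal copy of the imprinting control region (ICR) and blocks Igf2 from downstream enhancers. At Peg3, Snrpn, Mest, Plagl1 and Kcnq1ot1 the DMR overlies the promoter itself, methylated on the maternal chromosome. Many imprinted genes control fetal growth and are highly expressed in embryonic mesoderm.

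The sequences below are of NCBIM37 (the assembly of mm9), read on the strand of the gene, lower case except for motif matches. The first 3 are the CTCF core matches found in the H19 ICR window, which held no summit in any list. Capitals mark the CTCF core and any ZFP57 hexamer that overlaps it.
H19 ICR match 1, chr7:149766191-149766251: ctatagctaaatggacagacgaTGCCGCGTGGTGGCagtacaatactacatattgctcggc
H19 ICR match 2, chr7:149766646-149766706: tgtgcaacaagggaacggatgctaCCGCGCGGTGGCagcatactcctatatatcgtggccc
H19 ICR match 3, chr7:149767916-149767976: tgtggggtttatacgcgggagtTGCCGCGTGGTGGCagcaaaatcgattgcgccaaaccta

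The next 6 lie at or beside promoters and control regions where the lists do place summits. Capitals mark the ZFP57 hexamer, or its reverse complement, in the Snrpn, Plagl1, Mest and IG-DMR sequences, and the YY1 motif AANATGGC, read from the other strand, in the Peg3 sequence. The Kcnq1ot1 sequence holds no match to the 3 motifs searched.
Kcnq1ot1 promoter, chr7:150482381-150482581: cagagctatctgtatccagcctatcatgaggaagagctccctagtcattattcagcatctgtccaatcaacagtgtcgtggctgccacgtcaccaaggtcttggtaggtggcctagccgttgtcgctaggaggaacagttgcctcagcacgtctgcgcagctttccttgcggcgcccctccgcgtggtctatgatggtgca
Peg3 first intron, chr7:6681415-6681615: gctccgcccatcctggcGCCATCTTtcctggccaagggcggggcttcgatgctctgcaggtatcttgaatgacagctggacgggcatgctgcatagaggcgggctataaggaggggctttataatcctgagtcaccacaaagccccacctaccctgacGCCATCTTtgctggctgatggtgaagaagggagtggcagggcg
Snrpn intron, chr7:67149075-67149275: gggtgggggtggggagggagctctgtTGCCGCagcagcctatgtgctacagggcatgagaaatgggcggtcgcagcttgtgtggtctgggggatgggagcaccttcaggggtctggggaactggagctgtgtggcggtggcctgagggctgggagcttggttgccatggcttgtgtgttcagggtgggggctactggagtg
Plagl1 promoter, chr10:12810393-12810593: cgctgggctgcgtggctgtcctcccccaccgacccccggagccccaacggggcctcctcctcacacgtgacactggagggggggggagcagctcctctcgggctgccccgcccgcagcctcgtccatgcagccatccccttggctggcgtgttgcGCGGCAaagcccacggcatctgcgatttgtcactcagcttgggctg
Mest promoter, chr6:30687849-30688049: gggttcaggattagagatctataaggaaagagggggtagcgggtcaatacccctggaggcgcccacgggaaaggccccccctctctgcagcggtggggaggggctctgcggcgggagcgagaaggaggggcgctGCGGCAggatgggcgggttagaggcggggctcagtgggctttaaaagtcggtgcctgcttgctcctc
IG-DMR upstream of Meg3, chr12:110765729-110765929: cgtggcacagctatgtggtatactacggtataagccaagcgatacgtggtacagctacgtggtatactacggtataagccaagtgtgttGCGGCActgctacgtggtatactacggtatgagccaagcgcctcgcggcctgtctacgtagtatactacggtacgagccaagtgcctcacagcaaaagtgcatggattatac

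The last pair comes from the 2 regions around Grb10 in which the stop cassette and wild-type lists lay farthest apart. They were chosen after their values were seen, and hold no match in the bases shown.
Region upstream of Grb10, chr11:11981701-11981901: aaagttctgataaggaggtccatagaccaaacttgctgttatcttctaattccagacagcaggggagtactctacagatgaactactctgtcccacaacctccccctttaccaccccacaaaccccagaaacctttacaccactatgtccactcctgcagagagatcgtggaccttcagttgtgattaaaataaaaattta
Intron of Ddc, downstream of Grb10, chr11:11786683-11786883: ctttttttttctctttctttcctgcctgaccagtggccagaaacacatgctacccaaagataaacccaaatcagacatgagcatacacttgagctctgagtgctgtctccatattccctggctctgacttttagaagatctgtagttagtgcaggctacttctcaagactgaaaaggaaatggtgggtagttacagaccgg

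Promoters of the imprinted genes were accessible in most lists. Of the 6 with a summit in all 4 lists, 5 ranked below the median of all such genes. A promoter summit was present for 9, 10, 7 and 9 of the 10 genes, against 57.9%, 61.0%, 55.2% and 57.7% of all annotated genes in the same lists. Any annotated start of a gene counts, and these genes have from 1 (Cdkn1c) to 12 (Plagl1). The shares of all genes are not matched for the number of starts. In all 4 lists a summit was present for 6 of 10 (Cdkn1c, Kcnq1ot1, Peg3, Plagl1, Grb10 and Snrpn), against 53.5% of all genes (14014 of 26212). Without wild-type replicate 1 the count rose to 9, since H19, Igf2 and Mest had a promoter summit in every list but that one. Of the 26212 genes, 14552 had one in every list but that one. With the 5′-most start of each gene alone, the count in all 4 lists was 4 instead of 6. Averaged over the 4 lists, the strongest promoter summit of Kcnq1ot1 lay at percentile 91.2, above the median of 89.5 over the 14014 genes. The other 5 lay below that median: Cdkn1c averaged 81.2, Grb10 77.1, Peg3 72.7, Snrpn 71.0 and Plagl1 51.1. Of the 14014 genes, 57.2% had a lower average than Kcnq1ot1, 29.0% lower than Cdkn1c and 5.09% lower than Plagl1.

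**Figure D1:**
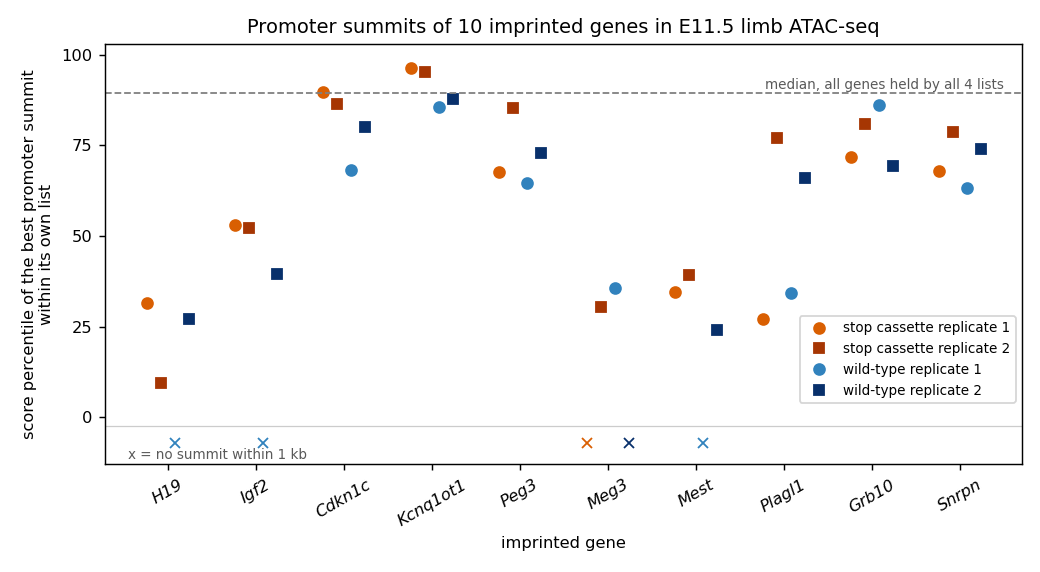
Percentile of the strongest promoter summit within its own list (vertical axis, 0 to 100) for the 10 imprinted genes, with stop cassette libraries in orange and wild-type libraries in blue, circles for replicate 1 and squares for replicate 2, crosses for no summit within 1 kb, and a dashed line at the median over all genes with a promoter summit in all 4 lists (89.5). Kcnq1ot1 is the gene whose average lies above the line (91.2), and 3 of the 5 crosses belong to wild-type replicate 1.

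Kcnq1ot1 is a long noncoding RNA started inside an intron of Kcnq1 and read antisense to it, which silences neighbouring genes on the paternal chromosome. It is not in the GENCODE M1 annotation, so its start was placed at position 150482452 of chromosome 7, minus strand, by the single exact match of its RefSeq promoter (GRCm38.p6) to the genome. Its strongest summits lay at -48, -80, -9 and -11 bp from that start, with percentiles of 96.4, 95.3, 85.5 and 87.7. All 4 lists therefore placed the strongest summit within 80 bp of the start, inside the printed sequence, and both stop cassette lists were above both wild-type lists. A weaker region followed at -9.4 kb (chr7:150491611-150492229), in the same intron, at 49.1, 51.7, 56.9 and 44.8, where the genotypes overlapped. The 100 kb around the start held 4, 5, 3 and 4 summits, fewer per kb than the median of all genes in each list.

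Peg3 encodes a large zinc finger protein expressed from the paternal chromosome. Its gene (ENSMUSG00000002265.8) spans chr7:6656603-6683132 on the minus strand. Its strongest promoter summits lay at -27, -25, -24 and -127 bp, with percentiles of 67.8, 85.4, 64.7 and 72.8. The genotypes overlapped, and the lowest value was that of wild-type replicate 1. Accessibility went on into the first intron in 2 further regions held by all 4 lists. The stronger (chr7:6679911-6681886) had percentiles of 83.0, 83.8, 76.6 and 72.5, and the weaker (chr7:6682032-6682598) had 62.0, 61.3, 42.5 and 69.6. In the stronger intronic region both stop cassette lists lay above both wild-type lists, while in the weaker they overlapped. At equal length both calls changed: the stronger had 74.0, 66.2, 76.6 and 63.6, which overlapped, and the weaker 41.9, 19.3, 42.5 and 59.8, with both stop cassette lists below both wild-type lists. The strongest region near any of the 10 genes that was held by all 4 lists lay downstream of Peg3, at the start of the imprinted gene Zim1 (chr7:6648726-6649819), with percentiles of 97.8, 99.6, 98.6 and 97.6.

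The Peg3 DMR is known for clustered sites of the zinc finger factor YY1, and the window searched there held 12 matches to AANATGGC in 5501 bp. Windows of the same length and placement at annotated genes held a median of 1, and 0.0649% of them (17 of 26212) held as many. The matches ran from 828 to 3116 bp into the gene, and the nearest summit of any list lay between 1 and 147 bp away. The repeated motif and the summits thus shared the same stretch of the first intron. A match is a description of the letters, not of binding. The printed Peg3 intron sequence carries 2 of the 12.

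**Figure D2:**
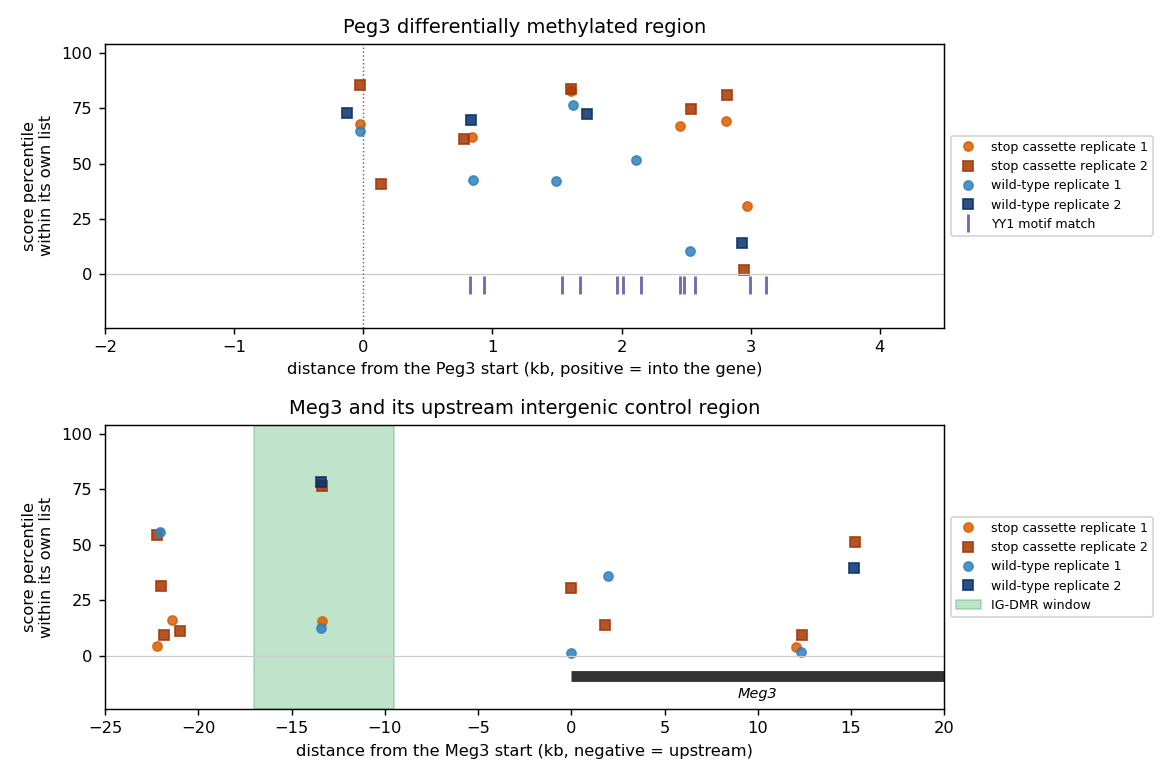
Summits at Peg3 (upper panel) and Meg3 (lower panel): distance from the gene start in kb on the horizontal axis, percentile within the list on the vertical axis, colours and symbols by library, purple ticks for YY1 matches, a green band for the IG-DMR window and a bar for the Meg3 gene. The 12 YY1 matches lie in the intronic stretch that also holds summits, and the IG-DMR summits split into 2 high (76.5 and 78.2) and 2 low (15.7 and 12.4) values that follow the replicate number and not the genotype.

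Snrpn encodes a protein of small nuclear ribonucleoproteins and starts at the imprinting centre of the Prader-Willi and Angelman cluster. The gene (ENSMUSG00000000948.9) spans chr7:67127388-67285105 on the minus strand with 2 annotated starts, and all its promoter summits lay at the internal one. The strongest promoter summits had percentiles of 68.0, 78.7, 63.4 and 74.0. Both replicate 2 lists were above both replicate 1 lists, and the genotypes overlapped. The 257.7 kb around the gene held just 4, 3, 4 and 2 summits, and 21.5%, 15.1%, 26.7% and 15.5% of all genes had a lower density in the same lists. These summits formed 2 regions, and both were held by all 4 lists. The first (chr7:67147833-67149472) had percentiles of 78.5, 78.7, 54.8 and 74.0, with both stop cassette lists above both wild-type lists. Its strongest summit in stop cassette replicate 1 lay outside the 1 kb promoter window, so the order of the promoter values above depends on that window. At equal length this region had 67.1, 55.7, 54.8 and 65.6, which overlapped. The second, over the annotated UTR (chr7:67149756-67150279), had 53.8, 68.6, 63.4 and 46.0. Accessible sites at Snrpn were therefore few, lay close together and were found in each library.

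Plagl1, a zinc finger transcription factor gene (ENSMUSG00000019817.11), spans chr10:12810497-12851500 on the plus strand with 12 annotated starts. Its strongest promoter summits lay within 26 bp of an annotated start in every list, at percentiles of 27.3, 77.0, 34.2 and 65.9. Both replicate 2 lists ranked it high and both replicate 1 lists low, a difference between replicate numbers larger than that between genotypes. Mest (ENSMUSG00000051855.8, chr6:30673547-30698457, plus strand), which encodes a protein of the hydrolase fold family, had promoter summits at 34.5, 39.2 and 24.0 in 3 lists and none in wild-type replicate 1. The first lay -888 bp from a start. The region at an internal start (chr6:30687665-30688621), 14.5 kb from the 5′-most one, had 26.7, 39.2 and 24.0 in the same lists. All of these were among the weaker summits in their lists. The strongest region near Mest held by all 4 lists lay at -29.8 kb, at the start of the neighbouring gene Tsga14 (chr6:30643286-30644152), with percentiles of 87.2, 91.7, 89.0 and 89.1.

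H19 is a maternally expressed noncoding RNA, and Igf2, upstream of it, encodes an insulin-like growth factor expressed from the paternal chromosome. The H19 promoter (ENSMUSG00000000031.9, gene at chr7:149761434-149764048, minus strand) held its strongest summits at -142, -109 and -99 bp with percentiles of 31.5, 9.40 and 27.2, and no summit in wild-type replicate 1. The Igf2 promoter (ENSMUSG00000048583.9, gene at chr7:149836673-149852721, minus strand) held its strongest summits at percentiles of 53.2, 52.3 and 39.6, again with none in wild-type replicate 1. Promoter ranks at this cluster were thus low to middling where a summit was called. At equal length the H19 promoter was left with a summit in wild-type replicate 2 alone, at percentile 3.54.

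The neighbourhood of H19 was by contrast dense in summits. It held 17, 22, 7 and 17 in 102.6 kb, a density higher than that of 91.0%, 96.0%, 76.4% and 96.8% of genes in the same lists. The leading region lay between H19 and Igf2, -33 kb from the H19 start (chr7:149796344-149798022, intergenic), with percentiles of 94.1, 92.6, 86.8 and 94.2. It ranked above the promoters of H19 and Igf2 in every list, and the genotypes overlapped. Downstream of H19, an intronic region of Mrpl23 (chr7:149723813-149724322, 39982 bp from the start) had percentiles of 82.5, 85.0, 76.7 and 83.9, which overlapped, and one in an intron of Nctc1 (chr7:149738381-149739690, 24991 bp) had 29.5, 61.5, 28.6 and 27.5. In the window from 6000 to 12000 bp downstream, placed for the endoderm enhancers of the cluster, the stop cassette lists held 1 and 2 summits and the wild-type lists 0. These were weak, at percentiles of 14.1 in the first list and 28.2 and 1.32 in the second, and no list kept a summit there at equal length.

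The H19 ICR window (chr7:149765548-149768548) held no summit in any list. Summits closest to it on the H19 side lay at the promoter (-142, -109 and -99 bp), except in wild-type replicate 1, where the next lay 24789 bp downstream of the start. On the Igf2 side the closest lay at -32.7, -15.7, -32.7 and -15.7 kb. The window held 3 CTCF core matches. At annotated genes 0.149% (39 of 26212) of windows of that length and placement held as many, and the median was 0. The 3 matches lay 2032, 2487 and 3757 bp from the closest summit of any list. The absence of a summit says that no peak passed the deposited threshold there, at a sequencing depth that is unknown.

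**Figure D3:**
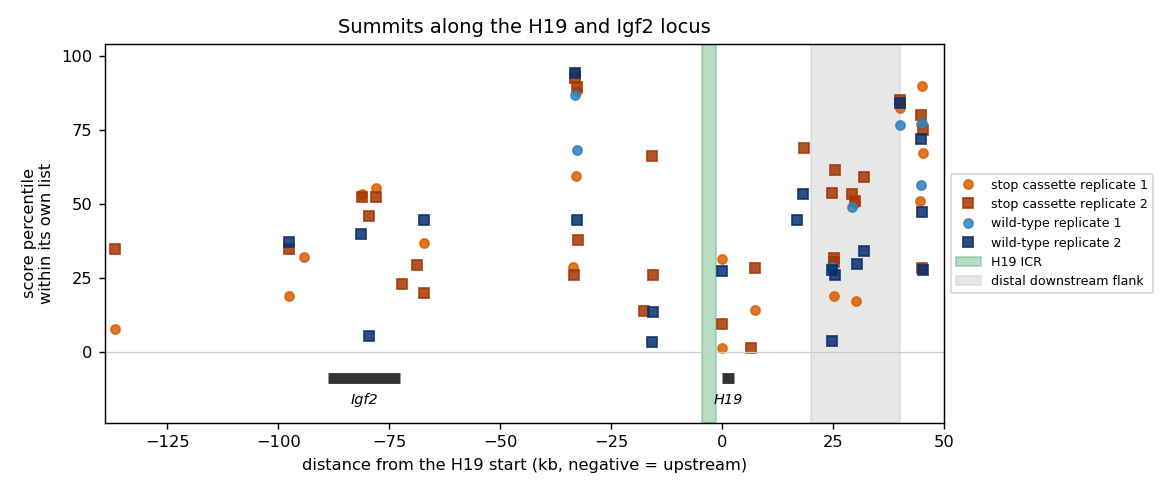
Summits along the H19 and Igf2 cluster: distance from the H19 start in kb (negative is upstream, towards Igf2) against percentile within the list, with library colours and symbols, dark bars for the genes, a green band for the ICR window and a grey band for the distal downstream flank. The ICR band is empty in all 4 libraries, while the intergenic region at -33 kb reaches percentiles of 86.8 to 94.2.

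Cdkn1c encodes a cyclin-dependent kinase inhibitor expressed from the maternal chromosome and lies in the cluster that Kcnq1ot1 silences. Its start (ENSMUSG00000037664.6, gene at chr7:150644255-150646955, minus strand) had summits at percentiles of 89.8, 86.5, 68.4 and 80.2, placed at -155, 70, 31 and 79 bp. Both stop cassette lists were above both wild-type lists. Of 10 regions in its neighbourhood, the promoter was the one held by all 4 lists. Another 3 were held by both stop cassette lists and no wild-type list, against 7483 of 74669 regions over the genome. At equal length this count of 3 fell to 0, against 5.13% of regions over the genome. At Phlda2, a neighbouring imprinted gene, the stop cassette lists gave 13.7 and 50.1, wild-type replicate 2 gave 16.5 and wild-type replicate 1 none.

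Meg3 is a maternally expressed noncoding RNA, and its cluster with Dlk1 is governed by the intergenic DMR (IG-DMR) upstream of it. At the gene itself (ENSMUSG00000021268.10, chr12:110779211-110809936, plus strand) accessibility was sparse. The strongest promoter summits stood at percentile 30.3 in stop cassette replicate 2 and 35.7 in wild-type replicate 1, and the other lists had none. The first lay -6 bp from the 5′-most start and the second 724 bp from an internal start. At the 5′-most start (chr12:110778955-110779464) the same lists had 30.3 and 1.09. The IG-DMR (chr12:110765530-110766109, at -13.4 kb) was held by all 4 lists, with percentiles of 15.7, 76.5, 12.4 and 78.2. Both replicate 2 lists were high and both replicate 1 lists low, in each genotype. The region is rich in CpG for a site far from a start: its ratio of observed to expected CpG was 1.02 over 301 bp, higher than in 98.9% of regions held by all 4 lists and over 1 kb from a start, with a GC content of 47.2%. At equal length it was not held by all 4 lists.

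Grb10 encodes an adaptor protein that dampens insulin and insulin-like growth factor receptor signalling. In most tissues its upstream promoter is used on the maternal chromosome, and internal promoters at a DMR are used on the paternal chromosome in neurons. The gene (ENSMUSG00000020176.10) spans chr11:11830511-11938686 on the minus strand. Within 1 kb of its 9 annotated starts lay 9, 9, 4 and 8 summits. At the upstream start (chr11:11936455-11938262) percentiles were 71.8, 81.0, 59.8 and 62.4, with both stop cassette lists above both wild-type lists. At the internal promoter (chr11:11925388-11926776), 12720 bp from the 5′-most start, they were 67.4, 74.2, 86.3 and 69.4, and the genotypes overlapped. At equal length the order changed at both. The upstream start had 56.8, 60.4, 59.8 and 50.3, which overlapped, and the internal promoter had 50.2, 46.2, 86.3 and 59.5, with both stop cassette lists below both wild-type lists. The strongest promoter summit thus lay at the upstream start in both stop cassette lists and at the internal promoter in both wild-type lists. A window from 20000 to 40000 bp into the gene, placed for the internal DMR from general knowledge, held no summit, and the window that holds the internal promoter was set after the annotation and the summits were seen.

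The neighbourhood of Grb10 held 25, 27, 11 and 19 summits in 208.2 kb and the 2 regions with the widest gap between the genotypes near any of the 10 genes. In an intron of Ddc, 151.8 kb downstream of the Grb10 start (chr11:11786529-11787313), percentiles were 71.6, 74.1, 9.70 and 5.01. Upstream of Grb10, in intergenic sequence at -43.1 kb (chr11:11980919-11982185), they were 88.1, 85.8, 31.7 and 20.7. The lowest stop cassette value exceeded the highest wild-type value by 61.9 and 54.1 points, gaps reached by 0.172% and 0.398% of all regions held by all 4 lists. At equal length the first had 56.5, 46.0 and 9.70 and no summit in wild-type replicate 2, and the second had 81.9, 70.3 and 31.7 and again none in wild-type replicate 2. Both were picked from the 21 regions for their gap, so these shares describe them and are no test.

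Around the same gene, 5 of 20 regions were held by both stop cassette lists and no wild-type list (7483 of 74669 over the genome), 3 of them inside the gene body, and 2 of the 5 remained so at equal length. The strongest lay 115.1 kb downstream of the start (chr11:11823280-11823802, intergenic), at percentiles of 76.9 and 80.2, and kept 64.7 and 58.7 at equal length. Ddc, the imprinted neighbour of Grb10 that encodes DOPA decarboxylase, had summits near an annotated start at 81.7 and 74.6 in the stop cassette lists and none in the wild-type lists. Those lay 93.5 kb beyond the end of Grb10, and at equal length stood at 71.9 and 47.0. In the other direction, 1 region in a Grb10 intron (chr11:11860763-11861475) was held by both wild-type lists alone, at 35.7 and 29.6. Promoters of 4 neural markers held a summit for 3, 4, 4 and 4 genes, those of 4 endothelial markers 1, 2, 1 and 1, and those of 3 muscle precursor markers 1, 3, 1 and 1, and their part in these differences was not tested. Genotype and any other difference between the 2 pairs of libraries cannot be told apart.

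**Figure D4:**
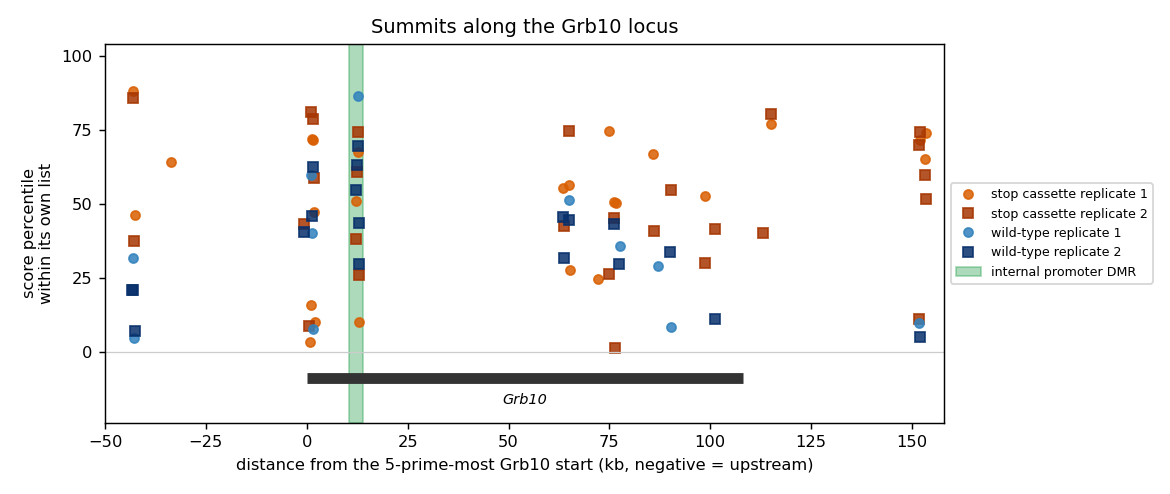
Summits along Grb10: distance from the 5′-most start in kb (negative is upstream) against percentile within the list, with library colours and symbols, a dark bar for the gene and a green band for the internal promoter. At both edges, -43.1 kb and 151.8 kb, the best stop cassette summits (71.6 to 88.1) stand above the wild-type ones (5.01 to 31.7).

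The comparison of genotypes asks whether accessibility at these loci differed in embryos with the stop cassette, which was inserted for the study of a noncoding RNA near engrailed-1. With 2 libraries against 2, the two-sided exact permutation test has 6 assignments and a smallest possible p of 0.333, so no gene can pass 0.05: 0 of 14014 genes had an unadjusted p under 0.05, and the smallest Benjamini-Hochberg adjusted p by this test was 0.734. Kcnq1ot1 averaged 95.9 ± 0.752 (SD, n = 2) in stop cassette and 86.6 ± 1.56 (SD, n = 2) in wild-type lists, a difference of 9.29 points (exact permutation p = 0.333). Cdkn1c averaged 88.2 ± 2.29 against 74.3 ± 8.40 (SD, n = 2 each), a difference of 13.9 (exact permutation p = 0.333, Benjamini-Hochberg adjusted 0.734). Both differences exceeded the SD within either group. The other 4 differed by 7.88 (Peg3), 4.67 (Snrpn), 2.07 (Plagl1) and -1.43 (Grb10), each within the SD of at least 1 group, with exact permutation p of 0.667, 0.667, 1 and 1 (adjusted 0.901, 0.901, 1 and 1).

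Both stop cassette lists were above both wild-type lists for 2 of the 6 genes with a promoter summit in all 4 lists, against 41.1% of all such genes, and below for 0 of 6, against 4.31%. Kcnq1ot1, absent from the annotation, is not among the 14014. Leaving out 1 library changed these counts and the background with them. Without stop cassette replicate 1 the stop cassette lists were above for 5 of 6 genes (70.4% of all genes with a summit in all remaining lists) and below for 0 (6.06%). Without wild-type replicate 1 they were above for 5 of 9 (49.7%), with Igf2 and Mest among the 5, and below for 0 (18.7%). Without wild-type replicate 2 they were above for 4 of 6 (65.8%) and below for Grb10 (10.1%). Without stop cassette replicate 2 they were above for 2 of 6 (45.9%) and below for Plagl1 (23.8%). Over all 14014 genes the median difference was 3.38 points, and at equal length it was -0.05, with 20.2% of genes above and 19.9% below. At equal length Kcnq1ot1 was the 1 gene above (a difference of 7.81) and Snrpn the 1 below (-11.1), while Cdkn1c overlapped (7.06). The shares of these genes with separated lists were thus near those of genes at large on both scales.

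Summits within 50 kb of the 10 genes numbered 92, 134, 48 and 81, which is 0.116%, 0.124%, 0.0928% and 0.118% of the lists. The 95% Wilson intervals of these shares, which cover counting error only, were 0.0949 to 0.143, 0.105 to 0.147, 0.0700 to 0.123 and 0.0952 to 0.147, and all 4 overlapped. The stop cassette mean exceeded the wild-type mean by 48.5 summits, and at equal length by -2. Wild-type replicate 1 held the fewest at Igf2 (10, 12, 2 and 6), Cdkn1c (10, 15, 3 and 6) and Mest (7, 12, 2 and 5), while at Plagl1 (5, 12, 4 and 6) and Meg3 (4, 12, 5 and 5) stop cassette replicate 2 stood above the other 3 lists. All genes had a median of 5.64, 6.94, 3.72 and 4.71 summits per 100 kb. H19, Grb10 and Peg3 were above this median in every list and Snrpn and Kcnq1ot1 below it in every list. The Kcnq1ot1 window holds 50 kb on each side of its start and no gene body, unlike those of the other genes.

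**Figure D5:**
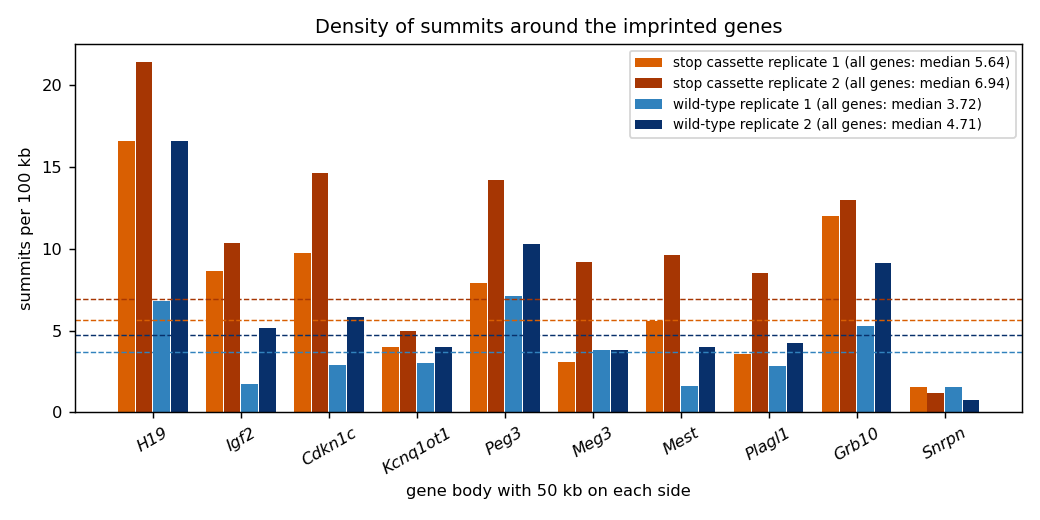
Summits per 100 kb in the gene body with 50 kb on each side (bars from 0) for each gene and library, with dashed lines at the median over all genes in the same library (5.64, 6.94, 3.72 and 4.71). H19, Grb10 and Peg3 stand above the line of their library in all 4 libraries, and Snrpn and Kcnq1ot1 stand below. For Kcnq1ot1, whose body is not annotated, the window is 50 kb on each side of its start.

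Merged into regions, the summits near the 10 genes gave 101 regions. All 4 lists shared 21 of these, 3 lists 21, 2 lists 29, and the other 30 came from 1 list. The share held by all 4 was 20.8%, against 32.0% of the 74669 regions in the genome. Without wild-type replicate 1, 36 regions were held by all remaining lists, and the genome share for this case is not given. Of the 29 held by 2 lists, 12 were those of both stop cassette lists (against 51.5% in the genome) and 2 those of both wild-type lists (against 1.61%). The 12 were spread over Grb10 with 5, Cdkn1c with 3, Igf2 with 2, and H19 and Mest with 1 each. At equal length, 63 regions remained, and 3 of them were in both stop cassette lists only (against 5.13%) and 2 in both wild-type lists only (against 2.25%).

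Of the 21 regions held by all 4 lists, both stop cassette lists were above both wild-type lists in 10 (against 38.9% of all such regions) and below in 0 (against 3.47%). At equal length 15 remained, with 1 above, at Kcnq1ot1 (against 20.6%), and 4 below (against 18.9%): the internal promoter of Grb10, the weaker Peg3 intronic region, the Mrpl23 intron and the Tsga14 start. The excess of higher ranks in stop cassette lists was thus seen over the genome with the lists as deposited, and not at equal length. The exceptions in size were the 2 regions around Grb10, which left the count at equal length since wild-type replicate 2 no longer held them.

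Of the 13 windows placed at control regions, promoters or flanks, 7 held a region present in all 4 lists. These were the distal H19 flank, the Kcnq1ot1 promoter DMR, the Peg3 DMR, the IG-DMR and the promoters of Plagl1, Snrpn and Cdkn1c. The windows differed in length, and those at promoters covered every annotated start of the gene. The H19 ICR and the outer Grb10 window held no summit in any list. The Meg3 and Mest promoter windows held summits in 2 and 3 lists, the window upstream of Igf2 in 3 and that of the H19 downstream enhancers in 2. How often like windows at other genes hold a region present in all 4 lists was not computed. The 53.5% of all genes with a promoter summit in all 4 lists is an unlike measure, since it searches 1 kb around starts.

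Over the 301 bp around the centre of each region, the ZFP57 hexamer (either strand) was found in 8 of the 12 regions near these genes that were held by all 4 lists and within 1 kb of a start, and in 2 of the 9 farther out. The same windows over the genome held it in 26.4% and 9.92% of regions of those classes, and in 10.3% of all regions. The 8 were both Snrpn regions (3 and 2 matches), the weaker Peg3 intronic region (3) and others with 1 match each. Those others were the Plagl1 promoter, the upstream and internal promoters of Grb10, and the starts of the neighbouring genes Mrpl23 and Zim1. The regions at the starts of Kcnq1ot1, Cdkn1c, Peg3 and Tsga14 held no match. YY1 was matched in 1 of 12 and 1 of 9, against 8.59% and 3.89%, and the CTCF core in 1 of 12 and 1 of 9, against 12.2% and 13.2%. The ZFP57 hexamer overlaps the CTCF core in 2 of the 3 ICR matches.

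Of 56 further imprinted genes listed by name, 55 were annotated, and 38 (69.1%) had a promoter summit in all 4 lists, against 53.5% of all genes. Peg10 and Sgce, both counted, had the same percentiles in every list. Their median average percentile was 77.6, below the 89.5 of all genes with such a summit. The highest were Nap1l4, a histone chaperone gene at the end of the Kcnq1 cluster (98.4), Zim1, the neighbour of Peg3 (98.4), and Copg2, the coat protein gene beside Mest (98.1). A summit was found in no list for 10: Ins2, Kcnq1, Mirg, Nctc1, Rian, Rtl1, Slc22a18, Slc22a2, Th and Usp29. Of all annotated genes, 37.7% had none. With the lists as deposited, both stop cassette lists were above both wild-type lists for 18 of the 38, and below for 0, set against the 41.1% and 4.31% of all genes.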

How the data were processed

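ATAC-seq of pooled E11.5 forelimb and hindlimb cells gave 4 libraries, 2 stop cassette and 2 wild type. Per the submitters' processing notes, Bowtie2 2.2.6 and Picard were used with mm9; per the peak names in the deposited lists, duplicates and mitochondrial reads were removed and mapping quality 30 applied. The peak caller, and any shift of reads for Tn5 binding, are not given in the sources used here. The authors deposited 1 list of summits per library, with a score read as −log10 of a q-value from its lowest value (1.30, a q of 0.0499). Without read counts in the lists, the sequencing depth is unknown and no count model was run.

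Scores were ranked within each list (midrank percentile). Summits were matched to GENCODE M1 starts on NCBIM37, and extended by 250 bp and merged into regions over the 4 lists. The compared genes are the 26212 protein-coding, lincRNA and processed transcript genes. Percentiles of single genes were compared with a two-sided exact permutation test, Benjamini-Hochberg adjusted over all genes with a promoter summit in all 4 lists. The motifs were TGCCGC (ZFP57), AANATGGC (YY1) and the CTCF core, on both strands. The text names all 10 genes, the regions in windows placed at control regions, promoters or flanks, and the strongest distal region. Of 56 other imprinted genes, it names those with no promoter summit and the 3 highest. The members and lists were chosen with earlier results of these data known. Python 3.11.15, numpy 2.4.6, scipy 1.17.1, statsmodels 0.14.6, pysam 0.24.0, samtools 1.23.1 and matplotlib 3.10.9 were used, and the code was tested on simulated data.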

Additional observations from a re-analysis of the deposited data

How the results depend on the processing

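Alternatives changed the promoter window, the start or summit used, the neighbourhood, the extension, the list length, the score threshold (5.83) or the libraries. Of 118 values, 44 counts and 51 gene differences stayed near their first value or kept their direction. Kcnq1ot1 and Cdkn1c were higher in stop cassette lists under all 11 alternatives that gave them a value, which are not independent checks. Changes of promoter window, start or summit returned their first values, 9.29 and 13.9, and the replicate block leaves a difference unchanged by construction. The others reuse the same lists, and at equal length the genotypes overlapped for Cdkn1c. The count of genes with both stop cassette lists above went from 2 to 4 with a window of 2 kb, to 1 at equal length, and from 2 to 5 when a library was left out; the count below went from 0 to 1 at equal length and from 0 to 1 when a library was left out. The difference in summits near the genes, 48.5, became -2 at equal length. Regions held by all lists went from 21 to 11 at the stricter threshold and from 21 to 36 when a library was left out, and control windows held by all lists from 7 to 4 at the stricter threshold. At equal length the difference was -4.15 for Peg3 and -11.1 for Snrpn. For Grb10, -1.43 as first computed, it was 12.9 with the summit nearest to a start, 3.61 at the stricter threshold and -14.2 at equal length. Leaving out 1 library gave -0.930 to 16.7 for Peg3, -22.8 to 26.9 for Plagl1, -9.86 to 7.0 for Grb10 and -0.705 to 10.04 for Snrpn. Grb10 and Snrpn had no value with the 5′-most start alone, nor Plagl1 at equal length or the stricter threshold. The cause of the other changes was not tested.

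With the replicate number as a block, the difference in summits remained 48.5 and an exact sign test over 2 pairs cannot go below p = 0.5, so it makes no call. The labels do not say what a shared number stands for. Deviations of replicate 1 from the group means correlated at 0.20 over 14014 genes, which are not replicates, and 2 pairs are too few to settle a pairing. The unknown depth limits every absent summit.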

Other observations

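Several imprinted transcripts lie inside a host gene, and their promoters can be set beside those of the host in the same lists. These pairs were chosen after the values were seen, and no test was run. Herc3 averaged percentile 95.3 over the 4 lists and Nap1l5, in its intron, 30.4. Commd1, a gene of copper metabolism, averaged 93.1 and Zrsr1, in its intron, 61.7. Blcap averaged 85.9 and Nnat, which encodes a small membrane protein, 45.6. Igf2r, the receptor that clears IGF2, averaged 83.9 and Airn, the noncoding RNA started within it, 71.5. In these 4 pairs the host ranked higher on average. Mcts2 averaged 88.8 and its host H13 77.7, the opposite order, and Kcnq1 had no promoter summit while Kcnq1ot1, within it, averaged 91.2.

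At the far ends of the Meg3 cluster, Dlk1, which encodes a transmembrane ligand, had promoter summits at percentiles of 30.1, 22.0 and 64.7 in stop cassette replicate 2, wild-type replicate 1 and wild-type replicate 2, and none in stop cassette replicate 1. Dio3, a thyroid hormone deiodinase gene, had 13.8, 24.9, 8.54 and 40.9 in the order of the lists used above. Both promoters were highest in wild-type replicate 2. Begain, another of the further imprinted genes listed, had 12.6, 24.2, 38.0 and 1.39, and was lowest in that list.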
